A study of Mus musculus with 4 samples.

Results

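The RNA levels of 10 transcription and RNA-binding factors of T cell activation were followed in mouse TH9 cultures that carry or lack BATF3, a basic leucine zipper factor of the AP-1 superfamily. The genes were Nr4a1, Nr4a2, Nr4a3, Egr1, Egr2, Egr3, Myc, Nfatc1, Tox and Zfp36, chosen by name and found by symbol. All 10 were present among the 25509 genes of the count table, and all 10 had enough counts to enter the test over 12135 genes. TH9 cells are helper T cells defined by secretion of interleukin 9. Naive splenic CD4+ T cells, sorted as CD25-negative, CD62L-high and CD44-low, were stimulated through CD3 and CD28 by antibodies and kept for 72 h in TGF-beta, IL-4 and the TNF-family cytokine TL1A. The 2 groups were WT and Batf3-/- cells with 2 libraries each, and every library received the same stimulation. The treatment tag of the labels writes the cytokine as TLA1. The labels do not describe the Batf3 allele or the strain, age or sex of the mice. They also do not say whether the libraries of a group came from separate animals. The p-values below rest on the spread among these 4 libraries, pooled in part across genes, which may not be the spread among animals. The 2 libraries of each genotype differed in the X-inactivation RNA Xist (values below), so they were not repeats of the same cells. No unstimulated or earlier sample was analysed here, so the values are levels late in the culture and not induction.

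NR4A1, NR4A2 and NR4A3 are orphan nuclear receptors, and EGR1, EGR2 and EGR3 are zinc finger factors. Both families are transcribed within minutes to hours of T cell receptor signalling, the NR4A and EGR2/EGR3 genes in large part through calcium, calcineurin and NFAT, and EGR1 mainly through the ERK pathway and serum response factor. NFATc1 is an NFAT factor whose own gene is induced on activation, MYC drives growth and biosynthesis of dividing T cells, TOX is an HMG-box factor of persistently stimulated T cells, and ZFP36 (tristetraprolin) binds AU-rich elements and promotes decay of cytokine mRNA.

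Estimated counts summed to between 15624874 and 31098059 per library. Batf3, the disrupted gene, had 1439 and 1661 counts in WT replicates 1 and 2 and 17 and 8 in Batf3-/- replicates 1 and 2, so every library matched its genotype label. All 10 general and CD4 T cell markers examined were present, with summed levels of 2667 to 2843 CPM (TMM-normalised counts scaled to library size) in WT and 2812 to 2873 CPM in Batf3-/- libraries. The 7 myeloid markers together lay at or below 0.629 CPM and the 5 NK cell markers at or below 1.24 CPM in every library, while Lyz2, Tyrobp, Ms4a1, Ncr1 and Klrb1c were at 0 in all of them. The B cell list summed to 9.88 to 13.2 CPM in WT and 10.2 to 12.3 CPM in Batf3-/- libraries, nearly all of it Cd79b. Dendritic cell markers summed to 7.76 and 9.43 CPM in WT against 6.66 and 7.40 CPM in Batf3-/- libraries, mostly Zbtb46, with Clec9a at 0 throughout. CD8 T cell markers summed to 8.49 and 9.09 CPM against 7.31 and 7.43 CPM, nearly all Cd8b1. Neutrophil, mast cell, erythroid and platelet lists held at most 1.67 CPM. The part of these small differences in any result below was not tested.

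The libraries of a genotype were not alike. The X-inactivation RNA Xist was at 0.214 CPM in WT replicate 1 and 0.0944 CPM in Batf3-/- replicate 1, but at 166 and 144 CPM in the libraries numbered 2. Y-linked genes summed to 146 to 344 CPM in all 4 libraries, so those numbered 2 held both. Levels over all tested genes in WT replicate 1 also correlated less with the other 3 libraries (r of log2 CPM 0.971 to 0.976) than these did with each other (0.981 to 0.982). Batf3-/- was therefore set against WT within each replicate number as well as over all 4 libraries, since the sample titles put 1 code on both libraries numbered 1 and another on both numbered 2. The labels do not say what the codes mark, which could be a shared experiment, and the SEs and p-values in this text do not use the pairing unless stated. Below, paired values for a genotype are replicate 1 and then replicate 2.

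At 72 h the factors spanned a wide range of levels. Per kilobase of the longest annotated transcript, Myc was highest at 116 ± 24.0 CPM per kb (mean ± SD over the 4 libraries), followed by Nr4a1 at 36.1 ± 6.72, Nr4a3 at 22.4 ± 4.14, Egr2 at 20.2 ± 5.14, Nfatc1 at 17.5 ± 2.01, Zfp36 at 16.4 ± 2.78, Nr4a2 at 11.2 ± 2.93 and Egr1 at 8.77 ± 1.85 CPM per kb. Egr3 at 2.62 ± 0.635 and Tox at 0.344 ± 0.0729 CPM per kb were lowest. By the longest transcript, the ranges of Myc, Nr4a1, Egr3 and Tox did not overlap those of their neighbours in this order. Each gene from Nr4a3 down to Nr4a2 overlapped the next one. The order was the same for all 10 genes when the mean length of a gene's transcripts was used, but the overlaps were not. By mean length the lowest library of Nr4a1 (47.9 CPM per kb) lay below the highest of Nr4a3 (49.0 CPM per kb). Egr2 then no longer overlapped Nfatc1, and Nr4a2 no longer overlapped Egr1. Which transcripts these cells used is not known from a gene-level table, so levels per length are approximate.

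None of the 10 genes passed edgeR's quasi-likelihood test between Batf3-/- and WT libraries (adjusted p from 0.898 to 0.992), where 0.132% of all tested genes did. Only Nr4a1 had an unadjusted p under 0.05 (in the higher direction), against 3.40% of all tested genes. DESeq2 and limma-voom called 0 of them too, each with 1 at an unadjusted p under 0.05. With the replicate number as a block that unadjusted count was 3, in a fit that called 112 of all tested genes, against 16 in the main fit. The share of all tested genes at that unadjusted p is not given for the alternatives, so their counts have no background beside them. In a bulk sample a lower value can reflect fewer cells with the transcript or less of it per cell, which cannot be told apart. By sign within the replicate numbers, the values fell into 2 groups. The 3 NR4A genes and Zfp36 were higher in the Batf3-/- library within both replicate numbers, as were 27.1% of all tested genes. The 3 EGR genes, Myc, Nfatc1 and Tox were higher within replicate number 1 and lower within number 2, as were 21.5%. Some signs rested on log2 ratios near 0. Among them were 0.09 for Nr4a2 within number 1, and 0.09 for Nr4a3 and -0.08 for Egr3 within number 2.

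**Figure D1:**
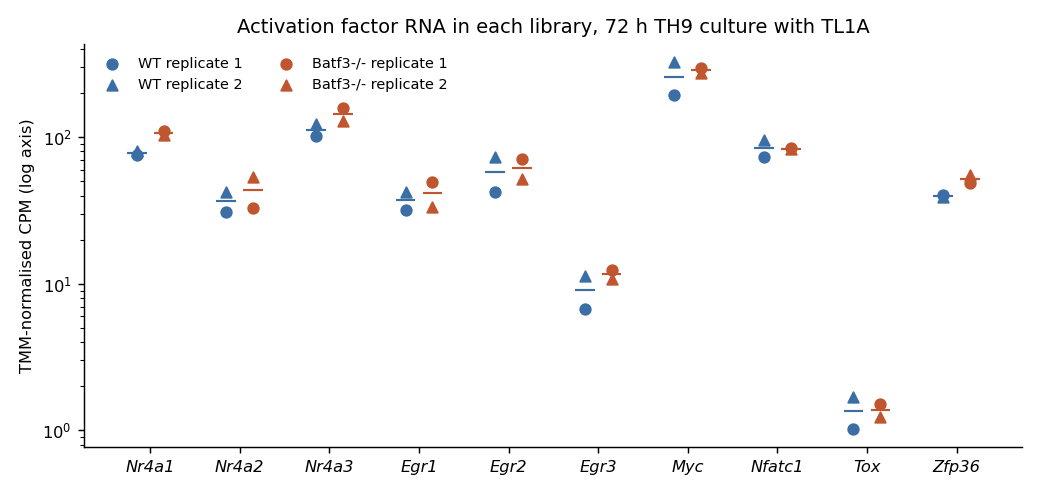
Levels of the 10 activation factors in TMM-normalised CPM (log axis). Each point is 1 library, circles for replicate 1 and triangles for replicate 2, blue for WT and orange for Batf3-/-, and the short lines are the means of 2 libraries. For Nr4a1, Nr4a3 and Zfp36 both Batf3-/- points lie above both WT points, and for every gene but Zfp36 the lowest point is WT replicate 1.

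Nr4a1 (ENSMUSG00000023034.6, GRCm38 chromosome 15, 101254269 to 101274795), which encodes NUR77, the receptor most used as a reporter of antigen signalling, stood at 75.1 and 80.3 CPM in WT, against 110.0 and 104 CPM in Batf3-/- cells. Both Batf3-/- libraries lay above both WT libraries, and the libraries of a genotype were within 1.07-fold of each other. The fitted ratio was 1.38-fold (log2 fold change 0.46, SE 0.183, 95% interval 0.08 to 0.84, edgeR adjusted p = 0.898, 0.0211 before adjustment), and the log2 ratio was 0.55 within replicate number 1 and 0.37 within number 2. The log2 fold change lay between 0.40 and 0.51 whichever library was left out.

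Nr4a3 (ENSMUSG00000028341.9, chromosome 4, 48045153 to 48086447), encoding NOR1, had 102 and 122 CPM in WT, against 159 and 130 CPM in Batf3-/- cells. The groups again did not overlap, but the gap between WT replicate 2 and Batf3-/- replicate 2 was small. The log2 fold change was 0.37 (SE 0.193, 95% interval -0.04 to 0.77, adjusted p = 0.958, edgeR), made up of 0.64 within number 1 and 0.09 within number 2. It was 0.23 without WT replicate 1, 0.21 without Batf3-/- replicate 1 and 0.51 with either of the libraries numbered 2 left out.

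Nr4a2 (ENSMUSG00000026826.13, chromosome 2, 57106830 to 57124003), encoding NURR1, was the family member whose libraries spread most. It stood at 30.9 and 42.1 CPM in WT, against 32.9 and 53.7 CPM in Batf3-/- cells, so the libraries numbered 2 were the higher ones in both genotypes. The groups overlapped. Its log2 fold change was 0.24 (SE 0.239, 95% interval -0.26 to 0.74, adjusted p = 0.958, edgeR), with 0.09 within number 1 and 0.35 within number 2. Without Batf3-/- replicate 2 the value turned to -0.15 and without WT replicate 1 it was 0.02.

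Per kilobase, the NR4A family had the same order in every library. Nr4a1 contributed 48.7% to 53.8% of the summed NR4A level, Nr4a3 29.0% to 34.7% and Nr4a2 11.5% to 19.2%. In CPM not divided by length, Nr4a3 was above Nr4a1 in every library, so their order rests on the lengths used. The summed level was 55.9 and 64.6 CPM per kb in WT replicates 1 and 2 and 80.1 and 78.4 in Batf3-/- replicates 1 and 2.

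The stretches just upstream of a RefSeq start of each of the 3 NR4A genes are shown, and beside them that of Egr2. Those of Nr4a1 and Egr2 lie inside the gene as GENCODE annotates it, so they precede an internal start. Any link of these sequences to the values above was not tested. RefSeq (GRCm38.p6) gave promoter windows for 5 of the 10 genes, Nr4a1, Nr4a2, Nr4a3, Egr2 and Zfp36. The 250 bases before the start were searched on both strands, and printing stops at the first base that GENCODE annotates as exon. Capitals mark the half-site TGACG of the cyclic AMP response element (CGTCA on the other strand), the CArG box bound by serum response factor and the site bound by MEF2 factors. The windows are, 5′ to 3′ on the gene's strand, chr15:101266596-101266845 (plus strand) for Nr4a1, chr2:57124004-57124253 (minus strand) for Nr4a2, chr4:48045055-48045152 (plus strand) for Nr4a3 and chr10:67537619-67537868 (plus strand) for Egr2, the last 1 of 5 RefSeq starts of that gene.
Nr4a1: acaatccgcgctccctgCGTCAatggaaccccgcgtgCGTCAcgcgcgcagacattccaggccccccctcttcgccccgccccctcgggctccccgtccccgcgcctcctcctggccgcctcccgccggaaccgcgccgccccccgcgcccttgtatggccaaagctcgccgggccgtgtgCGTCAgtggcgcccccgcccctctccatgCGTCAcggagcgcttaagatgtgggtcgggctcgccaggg
Nr4a2: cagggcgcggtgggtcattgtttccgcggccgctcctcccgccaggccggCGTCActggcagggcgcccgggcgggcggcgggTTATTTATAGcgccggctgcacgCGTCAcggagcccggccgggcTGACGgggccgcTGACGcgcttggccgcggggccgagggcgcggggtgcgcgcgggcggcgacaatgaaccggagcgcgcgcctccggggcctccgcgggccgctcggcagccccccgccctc
Nr4a3: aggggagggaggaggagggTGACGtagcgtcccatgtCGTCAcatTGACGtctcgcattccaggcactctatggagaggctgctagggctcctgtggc
Egr2: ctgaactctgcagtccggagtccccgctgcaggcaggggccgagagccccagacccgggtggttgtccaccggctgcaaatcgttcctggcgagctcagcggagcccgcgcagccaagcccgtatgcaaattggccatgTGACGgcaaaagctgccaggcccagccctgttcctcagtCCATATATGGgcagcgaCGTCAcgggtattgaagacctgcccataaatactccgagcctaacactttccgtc

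Each of the 3 NR4A windows held 4 TGACG half-sites, the fourth of Nr4a3 lying in annotated exon and not printed. At least 1 half-site was found in 17.8% of all 32851 RefSeq windows of this length, and 4 or more in 0.137%. In Nr4a1 they began at positions -233, -213, -69 and -40 (-1 is the last base before the start), in Nr4a2 at -200, -144, -123 and -111 and in Nr4a3 at -231, -213, -205 and -147. Egr2 held 2 half-sites, at -111 and -55, and 2 or more stood in 3.90% of windows. It also held a CArG box at -72. Zfp36 had no TGACG but a CArG box at -58, a motif found in 1.47% of windows. The Zfp36 window met annotated exon at its first base, so none of it is printed. A MEF2 site lay at -167 of Nr4a2 (2.92% of windows). The EGR motif GCGNGGGCG occurred once in each of the Nr4a1, Nr4a2 and Zfp36 windows (4.70% of windows). The full element TGACGTCA (which contains TGACG), the AP-1 motif TGANTCA and the NR4A motif AAAGGTCA were in none of the 5 windows, against 1.55%, 6.75% and 1.34% of all windows. These matches describe letters in the windows and not binding.

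The EGR genes had the other combination of signs, with Egr3 near 0 within number 2. Egr2 (ENSMUSG00000037868.15, chromosome 10, 67535475 to 67542188), a zinc finger factor of T cell anergy and of TH17 restraint, was the most abundant of the family, with 61.7% to 66.9% of the summed EGR level per kilobase in every library. It stood at 42.1 and 73.7 CPM in WT, against 71.3 and 52.0 CPM in Batf3-/- cells. WT replicate 2 was the highest and WT replicate 1 the lowest library, so the Batf3-/- values lay between them. The log2 fold change was 0.09 (SE 0.25, 95% interval -0.44 to 0.63, adjusted p = 0.976, edgeR), while the log2 ratio was 0.76 within number 1 and -0.50 within number 2. It turned to -0.26 without WT replicate 1 and to -0.16 without Batf3-/- replicate 1, and was 0.55 without WT replicate 2.

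Egr1 (ENSMUSG00000038418.7, chromosome 18, 34859823 to 34864984), the family member most directly tied to ERK signalling, followed it, at 31.8 and 42.3 CPM in WT, against 49.7 and 33.5 CPM in Batf3-/- cells. The groups overlapped, since WT replicate 2 lay between the 2 Batf3-/- libraries. Its log2 fold change was 0.17 (SE 0.224, 95% interval -0.30 to 0.64, adjusted p = 0.958, edgeR), with 0.64 within number 1 and -0.34 within number 2. The value was -0.03 without WT replicate 1 and -0.15 without Batf3-/- replicate 1.

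Egr3 (ENSMUSG00000033730.3, chromosome 14, 70077203 to 70082614), which acts with EGR2 in T cells, was low, with 157 to 396 counts per library. It stood at 6.73 and 11.4 CPM in WT, against 12.5 and 10.7 CPM in Batf3-/- cells. WT replicate 1 stood apart and the other 3 libraries lay close together. Its log2 fold change was 0.36 (SE 0.27, 95% interval -0.21 to 0.93, adjusted p = 0.958, edgeR), with 0.89 within number 1 and -0.08 within number 2, and leaving out WT replicate 1 gave 0.03 and leaving out WT replicate 2 gave 0.79.

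Of the remaining factors, Myc (ENSMUSG00000022346.14, chromosome 15, 61985391 to 61990374) had 194 and 324 CPM in WT, against 298 and 272 CPM in Batf3-/- cells. The 2 Batf3-/- libraries lay between the 2 WT libraries. Its log2 fold change was 0.14 (SE 0.223, 95% interval -0.33 to 0.61, adjusted p = 0.966, edgeR), with 0.62 within number 1 and -0.25 within number 2. Without WT replicate 1 it was -0.19 and without WT replicate 2 it was 0.55.

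Nfatc1 (ENSMUSG00000033016.15, chromosome 18, 80606205 to 80713071) was the steadiest of the 10, at 72.8 and 96.4 CPM in WT, against 84.6 and 82.7 CPM in Batf3-/- cells. Its highest library was 1.32-fold above its lowest. The log2 fold change was -0.02 (SE 0.193, 95% interval -0.42 to 0.39, adjusted p = 0.992, edgeR), with 0.22 within number 1 and -0.22 within number 2. It was 0.20 without WT replicate 2, 0.00 without Batf3-/- replicate 2 and 0.01 with upper-quartile scaling.

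Tox (ENSMUSG00000041272.11, chromosome 4, 6686353 to 6991557) was close to the limit of measurement, with 24 and 46 counts in WT replicates 1 and 2 and 48 and 19 in Batf3-/- replicates 1 and 2, or 1.03, 1.68, 1.51 and 1.23 CPM. Its log2 fold change was 0.03 (edgeR adjusted p = 0.992, SE 0.439), and the 95% interval of -0.89 to 0.95 spanned changes of nearly 2-fold in either direction. The log2 ratio was 0.55 within number 1 and -0.44 within number 2. The value was -0.27 without WT replicate 1 and -0.15 without Batf3-/- replicate 1.

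Zfp36 (ENSMUSG00000044786.5, chromosome 7, 28376784 to 28380253) resembled Nr4a1. It had 40.2 and 39.0 CPM in WT replicates 1 and 2, within 1.03-fold of each other, and 48.9 and 55.4 CPM in Batf3-/- replicates 1 and 2. It was the only member whose lowest library was not WT replicate 1. The fitted ratio was 1.32-fold (log2 fold change 0.40, SE 0.193, 95% interval -0.01 to 0.80, edgeR adjusted p = 0.958, 0.0539 before adjustment), with 0.28 within number 1 and 0.51 within number 2. It lay between 0.31 and 0.49 whichever library was left out. Antisense genes are annotated across Zfp36, Nfatc1 and Tox, and the sources used here do not state the strand setting of the counting, so antisense reads cannot be told apart for these 3.

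**Figure D2:**
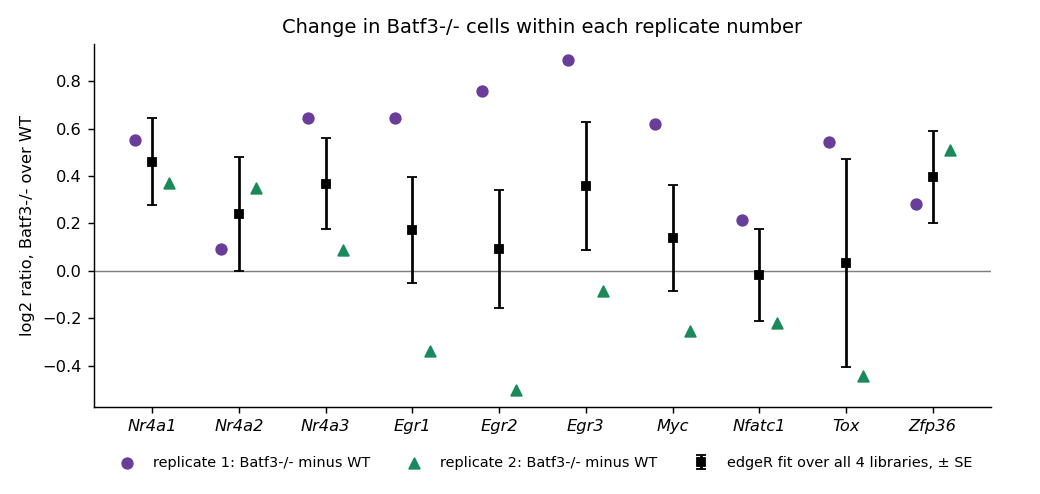
Log2 ratio of Batf3-/- over WT for each factor within replicate number 1 (circles) and within number 2 (triangles), with the edgeR log2 fold change over all 4 libraries and its SE (squares). All 10 circles lie above 0, whereas 4 triangles do so, those of Nr4a1, Nr4a2, Nr4a3 and Zfp36.

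Counted over the 10 genes, 9 had a positive log2 fold change, with a median of 0.21 against -0.01 over all tested genes, of which 48.4% were positive. The median was 0.58 within replicate number 1 (10 of 10 positive) and -0.15 within number 2 (4 of 10), against -0.01 and 0.00 over all tested genes. Both Batf3-/- libraries lay above both WT libraries in 3 of the 10 (Nr4a1, Nr4a3 and Zfp36), which held for 18.2% of tested genes, and below both in 0, which held for 15.6%. Values were higher within both numbers for 4 members (27.1% of tested genes) and higher within number 1 but lower within number 2 for 6 (21.5%). WT replicate 1 was the lowest library for 9 of the 10, against 32.4% of all tested genes. Without that library 5 of 10 log2 fold changes were positive and the median was -0.0030. Without WT replicate 2 all 10 were positive with a median of 0.49, and the lowest adjusted p among them was 0.062 (edgeR, Myc). That fit called 553 genes, against 16 with all libraries, and rests on 1 WT library.

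Genes that work with these factors were then read from the same fit. Of 14 relatives and cofactors, 11 were tested, with 4 positive, 0 past the threshold and a median of -0.01. Nab2, a corepressor that binds EGR proteins and is itself an EGR target, was at 48.4 and 62.3 CPM in WT, against 82.4 and 80.1 CPM in Batf3-/- libraries (log2 fold change 0.55, SE 0.194, edgeR adjusted p = 0.769, 0.0101 before adjustment). Its groups did not overlap, and its log2 ratio was 0.77 within number 1 and 0.36 within number 2. The other corepressor of the pair, Nab1, was at -0.19. The NFAT paralogs Nfatc2 and Nfatc3 stood at -0.01 and -0.19, and Nfat5, which responds to osmotic stress, at -0.28. Tox2 was at 0.43 (SE 0.347) and Tox4 at -0.11. Of the Zfp36 paralogs, Zfp36l1 was at 0.23 and Zfp36l2 at 0.02. Egr4 had 1 count in WT replicate 2 and in Batf3-/- replicate 2 and 0 in the others, and Nfatc4 and Tox3 were also too low to test.

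Among calcineurin and its regulators 11 of 12 genes were tested, 3 were positive, 0 passed and the median was -0.06. Rcan1, a calcineurin inhibitor whose gene is an NFAT target, was at 4.84 and 6.42 CPM in WT, against 7.93 and 7.89 CPM in Batf3-/- libraries (edgeR log2 fold change 0.49, SE 0.274). The catalytic subunit genes Ppp3ca, Ppp3cb and Ppp3cc stood at -0.14, -0.22 and -0.13. In the MAX network, 4 of 9 tested genes were positive (median -0.09) and 0 passed. Mnt, a repressor that competes with MYC for MAX, was at 26.1 and 42.4 CPM in WT, against 47.2 and 55.5 CPM in Batf3-/- libraries (log2 fold change 0.58, SE 0.227, edgeR adjusted p = 0.880, 0.0196 before adjustment). Max itself stood at -0.09 and Mga at -0.40.

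The 20 MYC target genes, chosen from nucleolar, nucleotide and metabolic genes, all entered the test and 0 passed, with 13 positive and a median of 0.05. Within replicate number 1, 17 of the 20 were higher in the Batf3-/- library (median 0.23), against 5906 of the 12135 tested genes (median -0.01). Within number 2, 4 of the 20 were higher (median -0.17), against 6122 of all tested genes (median 0.00). WT replicate 1 was the lowest library for 12 of the 20, against 32.4% of all tested genes. Myc had the same signs, at 0.62 and -0.25, in the same libraries, and a link was not tested. Cad, an enzyme of pyrimidine synthesis, stood at 0.31 (0.63 and 0.07 within the numbers), Odc1, the polyamine enzyme, at -0.23 (-0.15 and -0.31) and the translation factor gene Eif4e at -0.29 (-0.38 and -0.18).

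Of 33 immediate early genes, 24 were positive (median 0.20), 5 had an unadjusted p under 0.05, all 5 of them higher in Batf3-/- libraries (3.40% of all tested genes were), and 0 passed over all genes. Of these 33, 26 were positive within number 1 (median 0.34) and 23 within number 2 (median 0.07). Of all 12135 tested genes, 5906 and 6122 were positive within numbers 1 and 2. The smallest p belonged to the AP-1 gene Junb, at 315 and 527 CPM in WT, against 854 and 747 CPM in Batf3-/- libraries (edgeR log2 fold change 0.93, adjusted p = 0.252, SE 0.230). Jund stood at 0.75 (SE 0.227) and Csrnp1, a nuclear factor induced by signalling, at 0.45 (SE 0.206). Fos, whose RNA is classically short-lived after stimulation, was low and level at 4.99 to 5.50 CPM. WT replicate 1 was the lowest library for 20 of the 33, against 32.4% of all tested genes.

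Among 24 tested genes linked to NFAT, EGR or NR4A factors in activated and tolerant T cells, 15 were positive (median 0.09) and 0 passed. The checkpoint receptor gene Lag3 was at 66.6 and 61.3 CPM in WT, against 85.2 and 86.6 CPM in Batf3-/- libraries (log2 fold change 0.43, SE 0.184, edgeR adjusted p = 0.958, 0.0317 before adjustment), and Tigit stood at 0.46 and Cd200 at -0.36. Of 12 cytokine and inflammatory transcripts known as ZFP36 targets, 7 were tested, 6 were positive (median 0.14) and 0 passed. Il2 stood at 5.66 and 4.70 CPM in WT, against 4.22 and 2.13 CPM in Batf3-/- libraries (edgeR log2 fold change -0.63, SE 0.336), Il10 at 0.56 (SE 0.305) and Il3 at 0.57 (SE 0.440).

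**Figure D3:**
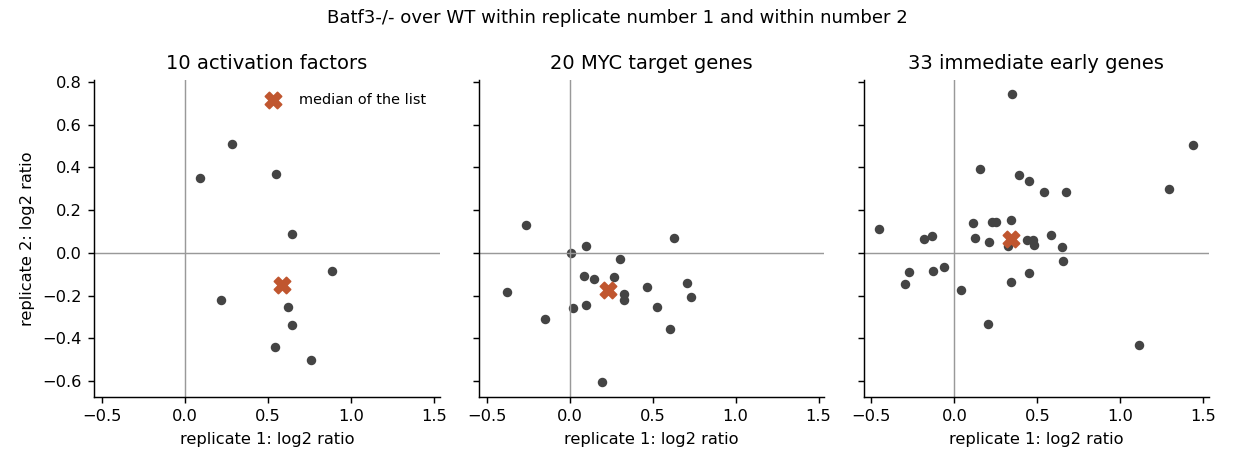
Log2 ratio of Batf3-/- over WT within replicate number 1 (horizontal) against that within number 2 (vertical), 1 point per gene, for the 10 activation factors, 20 MYC target genes and 33 immediate early genes; crosses are list medians. The medians are 0.58 and -0.15 for the factors, 0.23 and -0.17 for MYC targets and 0.34 and 0.07 for immediate early genes.

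Transcript GC content moved with some of these values. The longest transcripts of the 10 factors had 45.1% (Tox) to 57.3% GC (Egr1), with a median of 52.4% against 49.8% over all tested genes. With each library's trend on GC content removed, the log2 fold change of Nr4a1 (57.0% GC) went from 0.46 to 0.25 (SE 0.165), that of Egr1 from 0.17 to -0.04 and that of Zfp36 (54.1% GC) from 0.40 to 0.29, while Nr4a3 (48.4% GC) stood at 0.41 and Nr4a2 (47.9% GC) at 0.29. The log2 ratios of the NR4A genes and Zfp36 were then still positive within both numbers, at 0.25 and 0.25 for Nr4a1, 0.16 and 0.38 for Nr4a2, 0.70 and 0.12 for Nr4a3 and 0.12 and 0.46 for Zfp36. Those of Egr2 were 0.70 and -0.51 and those of Egr1 0.33 and -0.47. Among the partners, Nab2 (60.1% GC) went from 0.55 to 0.23, Mnt (59.5% GC) from 0.58 to 0.30, Lag3 (59.9% GC) from 0.43 to 0.09, Junb (62.6% GC) from 0.93 to 0.52, Jund (67.1% GC) from 0.75 to 0.16 and Csrnp1 (56.9% GC) from 0.45 to 0.26. The medians changed from 0.21 to 0.19 for the 10 factors and from 0.20 to 0.08 for immediate early genes. That of MYC targets was 0.05 both with and without the offset, with medians of 0.21 and -0.17 within the numbers.

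**Figure D4:**
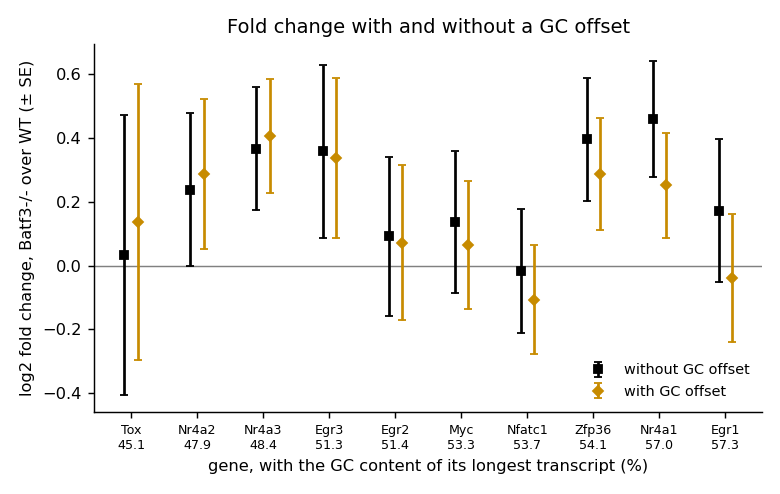
Log2 fold change of Batf3-/- over WT (± SE, edgeR) for each factor without (squares) and with (diamonds) an offset for GC content, ordered by the GC content of the longest transcript. The value of Nr4a1 goes from 0.46 to 0.25 and that of Egr1 from 0.17 to -0.04, while Nr4a3 goes from 0.37 to 0.41.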

How the data were processed

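RNA of 4 libraries was measured. The authors deposited RSEM estimated counts per gene. The submitters' processing notes name STAR 2.5.0, RSEM 1.2.25 and GRCm38 but no annotation release or strand setting. The 92 spike-in rows, all 0, were left out. Replicate libraries differed beyond sampling noise (chi-square per degree of freedom 63.0 in WT, 22.8 in Batf3-/-).

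Counts were rounded and tested with edgeR 4.0.16 under R 4.3.3 (filterByExpr, TMM, robust quasi-likelihood F-test, two-sided, genotype as the only term), with Benjamini-Hochberg adjustment over 12135 genes and a threshold of 0.05. TMM makes every level relative to the library. SE is the log2 fold change over the root of F, and 95% intervals use the fit's degrees of freedom. Ratios within a replicate number are differences of log2 CPM (prior count 0.5). Alternatives were other scalings and filters, DESeq2 1.42.0, limma-voom 3.58.1, each library left out, a replicate block, and an offset from each library's lowess trend on GC (span 0.3). Positions, lengths and GC come from GENCODE on GRCm38 (12105 tested genes matched). The code of the fit was checked for sign and recovery on simulated counts. These had the same dispersion for all genes and no deviating library, so they do not test the fit under the spread seen here.

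All 10 members were named, and from each further list those past the threshold or, with none, up to 3 with the smallest p, plus relatives and calcineurin genes by level; Max and Fos were added after their values were seen. Members and lists were chosen with earlier results of these data known.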

Additional observations from a re-analysis of the deposited data

How the results depend on the processing

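The number of members called was 0 under all 13 alternatives. The directions of Nr4a1, Nr4a3, Egr3 and Zfp36 held under all of them, and 13 of the 130 member values changed sign, in the other 6 genes. The GC offset turned Egr1 to -0.039 (-0.065 with the block) and upper-quartile scaling turned Nfatc1 to 0.013. When each library was left out in turn, the log2 fold change ran from -0.15 to 0.56 for Nr4a2, -0.15 to 0.42 for Egr1, -0.26 to 0.55 for Egr2, -0.19 to 0.55 for Myc, -0.21 to 0.20 for Nfatc1, -0.27 to 0.45 for Tox, 0.03 to 0.79 for Egr3, 0.21 to 0.51 for Nr4a3, 0.40 to 0.51 for Nr4a1 and 0.31 to 0.49 for Zfp36. The median of the 10 genes ran from -0.0030 to 0.49, lowest without WT replicate 1. Each of these fits left 1 library in a group, which is assumed to vary like the other; the cause was not tested.

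Over all genes, 16 were called with all libraries. The number was 29 in DESeq2, 112 with the replicate block, 88 with the block and GC offset together, and 18 to 553 with a library left out. The paired fit gave members a lowest adjusted p of 0.322 in edgeR (Nr4a1) with 0 called and 3 at an unadjusted p under 0.05. That unadjusted count was 1 with the design as reported and 2 with upper-quartile scaling. The share of all tested genes at that unadjusted p is not given for the alternatives. Deviations of same-numbered libraries from their genotype means correlated at 0.105. With 2 libraries per genotype the deviations are opposites, so this is a single value and no measure of the pairing. The titles give same-numbered libraries a shared code whose meaning is not stated. For Tox, with 19 to 48 counts, depth limits the estimate. Intervals cover no spread beyond that of 2 libraries per genotype. Their width rests largely on variance shared across genes (median prior degrees of freedom 16.83), not on a gene's own libraries alone. In both fits with the replicate block that median was infinite, so those fits lean still more on the shared variance.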
